A study of Mus musculus with 11 samples.

Results

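The genes described here are the Wnt ligands, the R-spondins, the receptors and co-receptors of both, the secreted Wnt antagonists, and the Axin, β-catenin and TCF/LEF genes that carry the signal into the nucleus. They were chosen by gene symbol alone, from families of known names (Wnt, Rspo, Fzd, Lrp5, Lrp6, Lgr4 to Lgr6, Znrf3, Rnf43, Dkk, Sfrp, Axin1, Axin2, Ctnnb1, Lef1 and the Tcf7 genes), and made up 56 of the 37820 gene rows of the expression table, with 55 symbols. RNA-seq was done on 11 libraries of 5 mouse populations that follow hematopoietic stem cells (HSCs) from their endothelial origin to the adult, with 3 libraries of pre-HSCs and 2 of every other population (Endo, HE, FL HSCs and BM HSCs). The Endo population is made of CD31+ endothelial cells at E10.5 that lack the Runx1:GFP reporter, and HE (hemogenic endothelium) are CD31+ cells at the same age that carry it. Both were sorted as CD45- and CD41- from Runx1tm4Dow reporter embryos, Endo as negative for Kit and HE as low or negative for it. These embryos came from B6C3F1 females mated to reporter males. Their aorta-gonad-mesonephros region and their umbilical and vitelline arteries were used. Pre-HSCs were sorted as CD31+, CD144+, ESAM+, Kit+ and Ly6a:GFP+ from the same tissues of embryos with the Ly6a:GFP transgene. The mothers of these embryos were superovulated B6C3F1 females mated to transgenic males. The labels place pre-HSCs at E10.5, and the study's methods a day later. Fetal liver at E14.5 was the source of FL HSCs, Lin-, Sca1+, Kit+, CD150+ and CD48- cells of offspring from B6C3F1 and B6129SF1 mice. BM HSCs came from the marrow of B6C3F1 and B6129SF1 mice aged 6 to 8 weeks and carry the same Lin-, Sca1+, Kit+ and CD150+ gate, with CD48 and CD135 excluded in 1 source of the study and CD34 in another. The labels name B6129SF1 for all 11 libraries. Each library pools cells of many embryos or mice, so reporter line, age, organ and gate change together with population and cannot be told apart from it. In such bulk libraries, fewer cells of a type and less RNA per cell cannot be told apart either.

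Wnt proteins are secreted lipid-modified ligands that bind Frizzled receptors, and in the canonical branch also the co-receptors Lrp5 and Lrp6. Without ligand, Axin holds β-catenin (Ctnnb1) in a complex that marks it for degradation. With ligand, β-catenin builds up and works with the TCF/LEF factors at target genes, among which Axin2, Lef1, Tcf7, Nkd1 and Apcdd1 are known to be induced in many tissues, and several of these act back as inhibitors. Secreted Frizzled-related proteins (Sfrp) bind ligand outside the cell, Dickkopf proteins (Dkk) act mainly on Lrp5 and Lrp6, and the R-spondins, through Lgr4 to Lgr6, keep the ligases Znrf3 and Rnf43 from clearing Frizzled receptors off the surface. The pathway is known for roles in blood vessel formation and in the emergence of HSCs in the aorta, and its part in adult HSCs is known to depend on its level.

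Expression is given as FPKM, fragments scaled to transcript length and to the size of the library, as deposited by the authors. The depth behind a value is unknown. Prpf8, a splicing factor needed by every cell, is listed at 0 in 1 pre-HSC library and at 36.0 to 129 FPKM elsewhere, so an exact 0 can be a failed estimate and genes at 0 are given below as listed at 0. Tests were made with limma on log2(FPKM + 1) over the 14708 genes with at least 1 FPKM in at least 2 libraries. Calls needed 2 stages. The F test over the 5 populations had to give an adjusted p under 0.01, and the step between neighboring populations an adjusted p under 0.05 with a change of at least 2-fold. Log2 fold changes below are on the log2(FPKM + 1) scale, which understates the change of genes at low FPKM.

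For 8 endothelial marker genes, summed FPKM lay between 1581 and 2312 over all Endo, HE and pre-HSC libraries and between 158 and 191 over the HSC libraries. For 8 hematopoietic markers the sum was 19.7 to 34.7 in Endo and HE libraries and 905 to 1205 in HSC libraries, with pre-HSCs between (222 to 352). The 14 mural and mesenchymal markers had Endo sums of 257 and 634 FPKM, HE sums of 1429 and 1587, pre-HSC sums of 298 to 644 and HSC sums of 6.89 to 13.8. The 6 epithelial markers had Endo sums of 50.2 and 175, HE sums of 508 and 247, pre-HSC sums of 30.6 to 55.8 and HSC sums of 14.4 to 52.0, the last nearly all from Krt18. HE thus had the highest sums of these 2 lists, and Endo replicate 2 had more of both than Endo replicate 1. The 6 macrophage markers summed to 147 to 736 FPKM in pre-HSCs and to 285 and 98.2 in the FL HSC libraries, against 2.89 to 9.10 in Endo and HE. The 6 erythroid markers summed to 2975 to 4248 in Endo and HE and to 15.4 to 273 elsewhere. Neural and neural crest markers summed to 59.4 to 84.8 FPKM in Endo and HE, with 34.8 to 44.8 in pre-HSCs and at most 5.14 in HSCs. Most of this sum was Nes, at 40.3 to 61.4 FPKM in Endo and HE and 32.8 to 40.9 in pre-HSCs. Hepatocyte markers stayed between 1.56 and 31.6 FPKM.

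Of the 56 genes, 32 had their highest mean in HE, 10 in pre-HSCs, 5 in Endo, 3 in FL HSCs and 6 in BM HSCs. In Endo, 35 genes had a mean of at least 1 FPKM. The number was 39 for HE, 34 for pre-HSCs, 17 for FL HSCs and 16 for BM HSCs. In all, 40 of the 56 reached the level needed for testing, and 28 of the 40 were called in at least 1 of the 4 steps, beside 5153 (35%) of all tested genes. Since a gene could pass that level through the population where it is high, these counts describe the genes measured and are read against all tested genes.

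**Figure D1:**
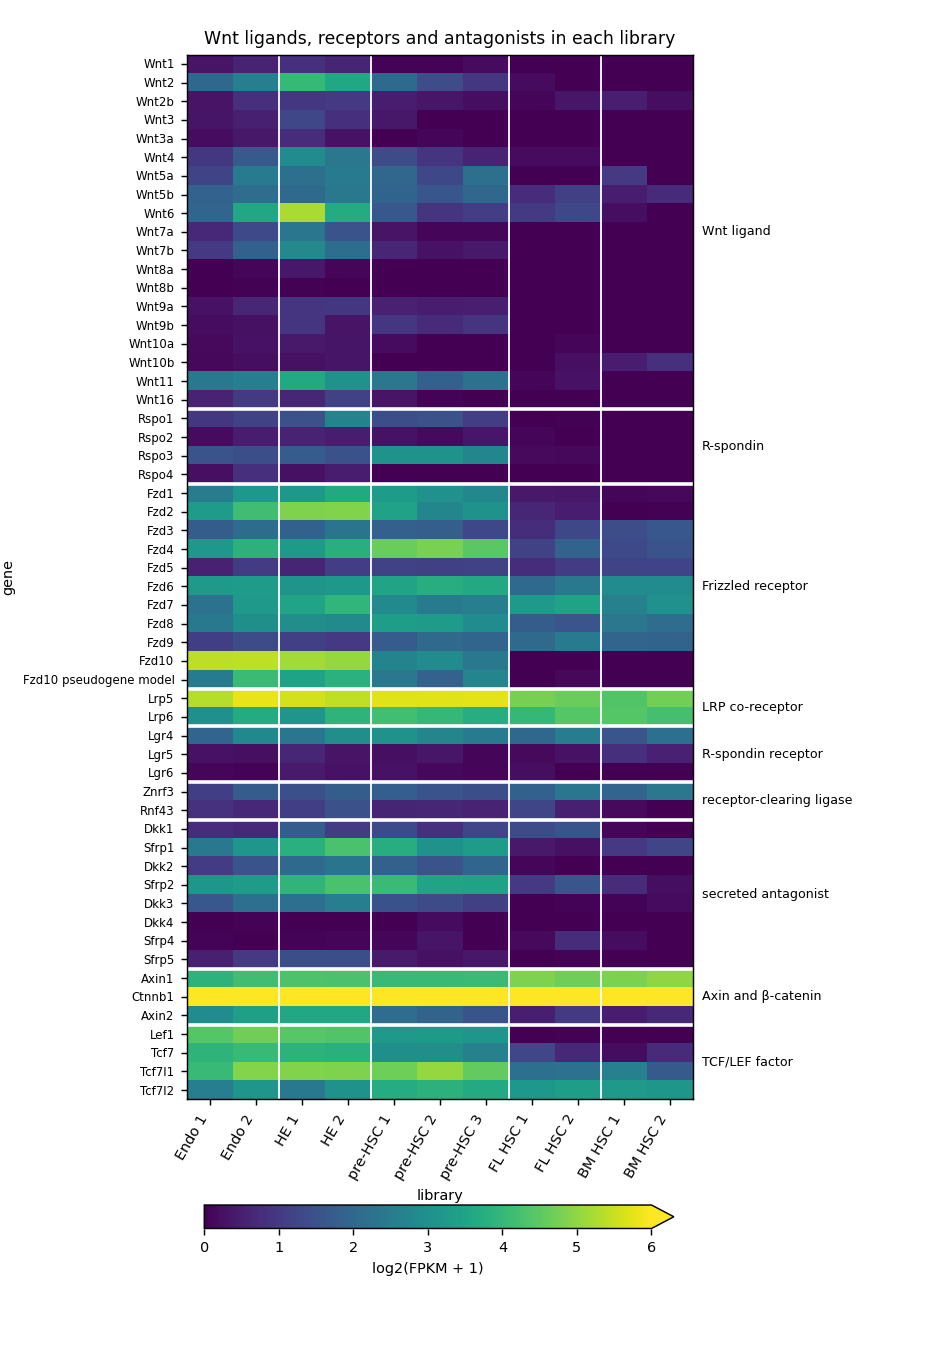
Heat map of log2(FPKM + 1) for all 56 genes (rows, grouped by role) in the 11 libraries (columns, separated by population); the color scale ends at 6, which only Ctnnb1 exceeds. Most ligand, R-spondin and Sfrp rows are dark (low) in the 4 HSC libraries, whereas Lrp5, Lrp6, Axin1 and Tcf7l2 stay lighter there, at 8.08 FPKM or more in each.

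From Endo to HE, 0 of 40 genes were called in either direction, where limma called 8 (0.0544%) of all tested genes higher and 11 (0.0748%) lower. Taking unadjusted p-values (below 0.05, 2-fold), 7 of the 40 were higher in HE and 0 lower, against 292 (1.99%) and 44 (0.299%) of all tested genes. The median log2 fold change of the 40 was 0.37, beside 0.03 over all tested genes, and 31 of the 40 values were above 0. From HE to pre-HSCs, 2 of 40 rose and 13 fell, where 6.98% of all tested genes rose and 4.34% fell, and the median was -0.47 beside 0.09. From pre-HSCs to FL HSCs, 0 of 40 rose and 22 fell, where 11.1% of all rose and 13.9% fell, with a median of -1.17 beside 0.11. From FL to BM HSCs, 0 of 40 rose and 1 fell, where 5.99% of all rose and 4.07% fell, with a median of -0.07 beside 0. The unadjusted measure gave 2 higher and 14 lower of the 40 from HE to pre-HSCs (8.03% and 4.82% of all), 0 and 22 from pre-HSCs to FL HSCs (12% and 15.3%), and 0 and 1 from FL to BM HSCs (7.57% and 4.95%). Of the 40, 1 is a pseudogene model that overlaps Fzd10. Without that model, 12 fell into pre-HSCs and 21 into FL HSCs. In all, 8 rows fell in both of these steps (Wnt2, Wnt11, Fzd2, Fzd10, the pseudogene model, Dkk3, Axin2 and Lef1), as did 233 (1.58%) of all tested genes. The balance of all calls moves with the scaling. Quantile normalization gave 802 higher and 832 lower genes from HE to pre-HSCs in place of 1026 and 639, and 5 and 15 from Endo to HE in place of 8 and 11. Scaling to equal totals gave 1312 and 477 from HE to pre-HSCs, and 1126 and 2329 from pre-HSCs to FL HSCs in place of 1637 and 2040.

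**Figure D2:**
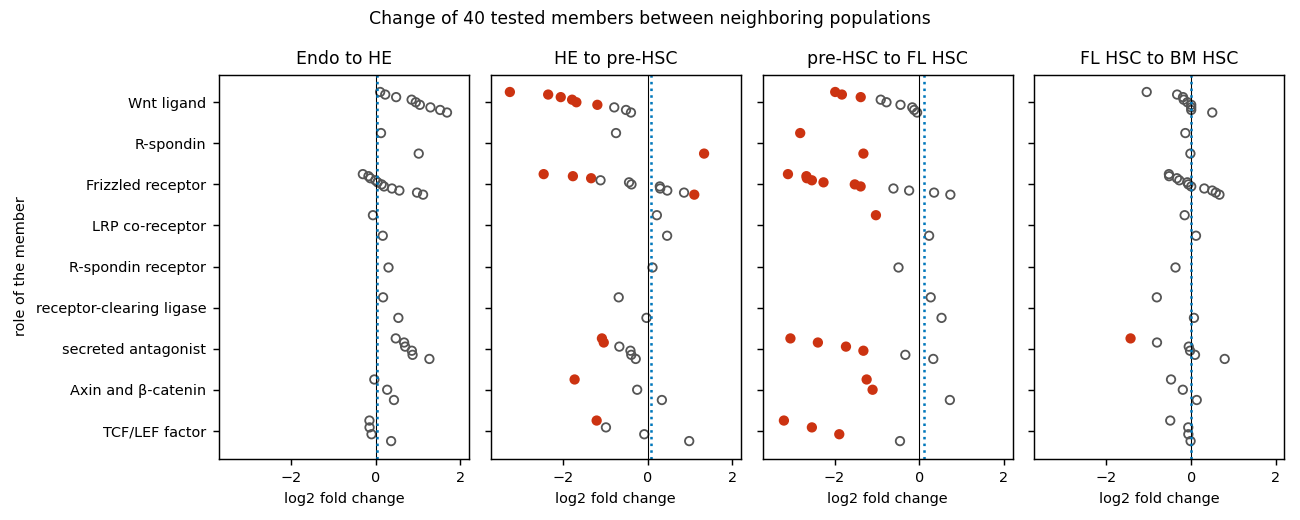
Log2 fold change of the 40 tested genes (points, 1 row per role) in each of the 4 steps; filled red points were called, open gray points were not, the solid line is 0 and the dotted blue line is the median of all 14708 tested genes. Called points lie almost all to the left in the middle panels, 13 of 15 from HE to pre-HSCs and 22 of 22 from pre-HSCs to FL HSCs.

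The Wnt ligands had their highest sums in HE. Of 19 ligand genes, 16 had their highest mean there, and summed ligand FPKM had Endo values of 19.03 and 39.8, HE values of 93.8 and 54.5, pre-HSC values of 20.2, 11.3 and 15.1, FL HSC values of 2.13 and 3.52 and BM HSC values of 2.34 and 1.61. Of these 16, 7 were too low to be tested. All 9 tested ligands had a higher mean in HE than in Endo and a lower mean in pre-HSCs than in HE. From Endo to HE 0 of the 9 were called, where 0.0544% of all tested genes were called higher. Endo and HE libraries overlapped in Wnt5a, Wnt5b and Wnt16. From HE to pre-HSCs 6 of the 9 fell, where 4.34% of all tested genes did. Wnt6 (chr1:74818466-74831893 in mm9), a canonical ligand of epithelia, had Endo values of 2.89 and 11.1 FPKM, HE values of 36.5 and 11.9, pre-HSC values of 2.08, 0.880 and 1.14, FL HSC values of 1.04 and 1.44 and BM HSC values of 0.159 and 0. HE replicate 1 stood above all others, and HE and pre-HSC libraries did not overlap. Its log2 fold change from HE to pre-HSCs was -3.25 (SE 0.52, limma's adjusted p = 0.00237). From Endo to HE it was 1.68 (SE 0.57, adjusted p = 0.397), with Endo replicate 2 close to HE replicate 2.

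Wnt2, a canonical ligand known from vessels, lung and placenta, had Endo values of 3.06 and 4.94 FPKM, HE values of 15.3 and 11.2, pre-HSC values of 3.12, 1.67 and 0.945 and FL HSC values of 0.133 and 0, and is listed at 0 in both BM HSC libraries. It fell in both middle steps, by 2.35 (SE 0.31, adjusted p = 0.00104) and then by 1.38 (SE 0.31, adjusted p = 0.00492) on the log2 scale. Wnt11, a ligand of the noncanonical branch that guides cell movement, had Endo values of 4.39 and 5.06 FPKM, HE values of 11.5 and 7.45, pre-HSC values of 4.28, 2.65 and 3.82 and FL HSC values of 0.0712 and 0.220. Wnt11 was the leading ligand in all 3 pre-HSC libraries, with 21.2% to 25.4% of the ligand sum. Its fall into pre-HSCs (log2 fold change -1.18, SE 0.24, adjusted p = 0.00653) was lost without HE replicate 1 (-0.90, adjusted p = 0.0773), and its fall into FL HSCs was -1.99 (SE 0.24, adjusted p = 9.32e-05).

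Wnt4, Wnt7a and Wnt7b, ligands known from kidney, limb and brain vessel development, were called in the step from HE to pre-HSCs and in no other. Wnt4 had HE values of 6.38 and 4.21 FPKM and pre-HSC values of 1.59, 0.855 and 0.511 (-1.68, SE 0.30, adjusted p = 0.00366). Wnt7a had HE values of 4.12 and 1.90 and pre-HSC values of at most 0.254 (-1.78, SE 0.28, adjusted p = 0.00207), and Wnt7b had HE values of 6.03 and 3.52 and pre-HSC values of at most 0.559 (-2.05, SE 0.28, adjusted p = 0.00123). In each of these 3 genes all HE libraries lay above all pre-HSC libraries. In Endo, Wnt4 was at 0.965 and 2.26, Wnt7a at 0.602 and 1.498 and Wnt7b at 1.04 and 2.67 FPKM, with replicate 2 the higher each time. In the HSC libraries Wnt7a and Wnt7b are listed at 0, and Wnt4 was at most 0.134.

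Wnt5a, the best known noncanonical ligand, took another course. It had Endo values of 1.36 and 4.52 FPKM, HE values of 3.62 and 4.52 and pre-HSC values of 2.92, 1.47 and 3.64, so these populations overlapped, and it is listed at 0 in both FL HSC libraries and at 0.991 and 0 in BM HSCs. The step into FL HSCs was called (adjusted p = 0.00505), but without either HE library or either FL HSC library the F test step missed its threshold and the call was lost (pairwise adjusted p from 0.00881 to 0.0315). It was lost, too, when replicate numbers were a block (adjusted p = 0.0248). Its close relative Wnt5b, between 0.401 and 4.29 FPKM, and Wnt16, between 0 and 1.26, were called in no step. The remaining 10 ligands (Wnt1, Wnt2b, Wnt3, Wnt3a, Wnt8a, Wnt8b, Wnt9a, Wnt9b, Wnt10a and Wnt10b) did not reach the level for testing, with at most 1.42 FPKM, and 7 of the 10 had their highest mean in HE. Wnt10b was the ligand with its highest mean in BM HSCs, at 0.365 and 0.780 FPKM, against 0 and 0.189 in FL HSCs and 0 in all 3 pre-HSC libraries.

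Ligand sums can be set beside the marker sums of mural and mesenchymal cells and of epithelial cells. The 2 HE libraries were highest in all 3 sums, Endo replicate 2 was above Endo replicate 1 in all 3, and pre-HSC replicate 1 was the highest pre-HSC library in all 3. HE replicate 1 had more ligand and epithelial marker signal than HE replicate 2, and less mural and mesenchymal signal. The epithelial sum was 46.1 and 52.0 FPKM in the BM HSC libraries, 16.4 and 14.4 in the FL HSC libraries and 50.2 in Endo replicate 1. These epithelial sums differ in make-up. Krt18 alone gave 44.0 and 48.9 FPKM in BM HSCs, against 13.9 in Endo replicate 1, where Krt8 was at 23.5. Krt8, an epithelial keratin, had Endo values of 23.5 and 82.2 FPKM, HE values of 233 and 112 and pre-HSC values of 8.03 to 16.1. Over these populations alone, its order was much like that of Wnt6. Among HSCs Krt8 and Wnt6 went opposite ways, but not all epithelial markers went with Krt8. Krt8, named after its values were seen, was higher from marrow (1.27 and 1.63 FPKM) than from fetal liver (0.466 and 0.149). Krt18 and Epcam were higher from marrow too. Cdh1 was at 0.0158 and 0.00715 FPKM from fetal liver and is listed at 0 from marrow. Krt19 and Cldn6 are listed at 0 in both HSC populations. Wnt6 was lower from marrow (0.159 and 0) than from fetal liver (1.04 and 1.44). The part of other cell types in the ligand values was not tested.

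**Figure D3:**
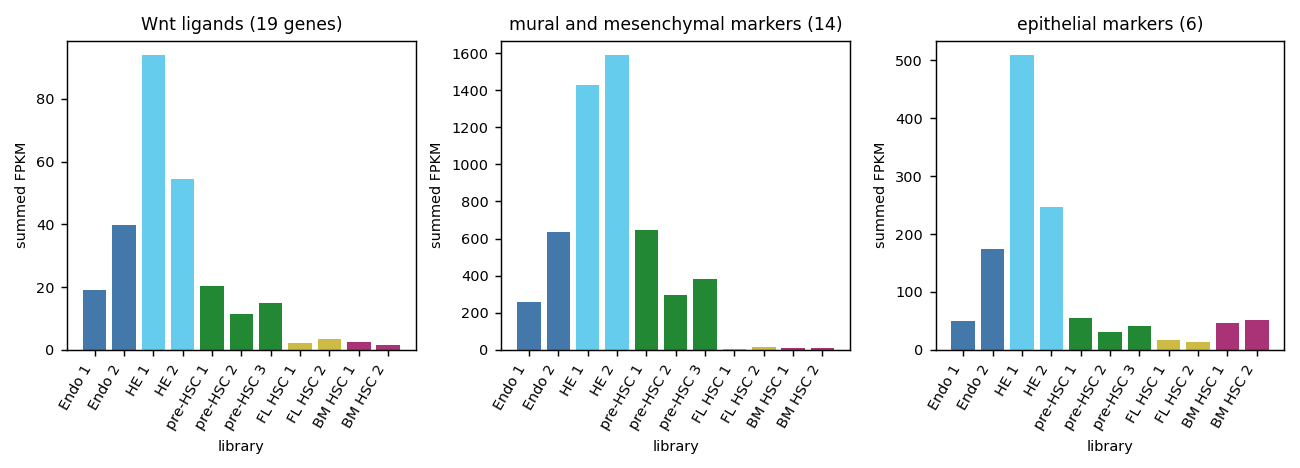
Summed FPKM (vertical axes, starting at 0) of the 19 Wnt ligands, of 14 mural and mesenchymal markers and of 6 epithelial markers in each of the 11 libraries, colored by population. The 2 HE bars are the tallest in each panel, and the second Endo bar is taller than the first in each.

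The R-spondins, which amplify Wnt signals, split. Rspo3 (chr10:29172915-29255673 in mm9), known as an endothelial R-spondin needed for vessel growth, had Endo values of 1.92 and 1.70 FPKM, HE values of 2.36 and 1.79, pre-HSC values of 7.27, 7.27 and 5.76 and FL HSC values of 0.102 and 0.0985, and is listed at 0 in both BM HSC libraries. The 3 pre-HSC libraries stood above all 8 others. On entry to pre-HSCs Rspo3 rose by 1.34 on the log2 scale (SE 0.19, adjusted p = 0.00127) and fell into FL HSCs by 2.81 (SE 0.19, adjusted p = 1.86e-06). Rspo1 had Endo values of 0.976 and 1.22 FPKM, HE values of 1.79 and 5.43, pre-HSC values of 1.71, 1.82 and 1.12 and FL HSC values of 0 and 0.0267, with HE replicate 2 far above the rest. Rspo1 fell into FL HSCs by 1.32 on the log2 scale (SE 0.31, adjusted p = 0.00632), a change just under 2-fold after quantile normalization (-0.9957). Rspo2 and Rspo4 were not tested and reached at most 0.520 and 0.768 FPKM. No R-spondin was above 0 in BM HSCs.

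The Frizzled receptors changed in kind as well as in amount. Without the pseudogene model, summed Frizzled FPKM had Endo values of 84.0 and 111, HE values of 109 and 119.7, pre-HSC values of 79.9, 78.7 and 67.2, FL HSC values of 20.6 and 27.1 and BM HSC values of 23.3 and 25.3. The leading receptor was Fzd10 in Endo and HE (27.0% to 49.4% of the sum), Fzd4 in pre-HSCs (29.6% to 34.0%) and Fzd7 in FL HSCs (40.5% and 37.8%). In BM HSCs Fzd6 led in replicate 1 with 27.9% and Fzd7 in replicate 2 with 28.6%. Of 11 Frizzled rows tested, 1 rose and 3 fell from HE to pre-HSCs and 7 fell from pre-HSCs to FL HSCs. Unlike the sums, both counts of falls hold the pseudogene model beside Fzd10. Of all tested genes, 6.98% rose and 4.34% fell in the first step and 13.9% fell in the second, so that 1 rise is near the background.

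Fzd10 (ENSMUSG00000081683, chr5:129106719-129109968 in mm9) had Endo values of 41.5 and 42.1 FPKM, HE values of 35.2 and 32.3 and pre-HSC values of 5.49, 6.45 and 4.28. It was at 0 and 6.44e-07 in FL HSCs and is listed at 0 in both BM HSC libraries. The Endo, HE and pre-HSC libraries did not overlap. Fzd10 fell by 2.45 (SE 0.18, adjusted p = 6.54e-05) into pre-HSCs and by 2.67 (SE 0.18, adjusted p = 2.12e-06) into FL HSCs. A pseudogene model (ENSMUSG00000089856, chr5:129106806-129109236) lies within the same interval, so how the reads were split between them is uncertain. That model had Endo values of 4.51 and 16.0 FPKM, HE values of 10.2 and 13.2, pre-HSC values of 4.22, 2.68 and 5.61, FL HSC values of 0 and 0.0968 and BM HSC values of 0. Both rows were called lower in both middle steps, the model's first step with an adjusted p of 0.0417 that 12 of 20 alternative settings did not keep.

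Fzd2, a receptor of both Wnt branches, fell in the same 2 steps as Fzd10 but had its highest level in HE. It had Endo values of 8.75 and 16.9 FPKM, HE values of 27.5 and 27.98, pre-HSC values of 9.92, 5.72 and 7.31, FL HSC values of 0.565 and 0.363 and BM HSC values of 0.0142 and 0.0206. The falls were 1.76 (SE 0.28, adjusted p = 0.00229) and 2.54 (SE 0.28, adjusted p = 5.76e-05) on the log2 scale. Fzd4 (chr7:96552876-96558620 in mm9), a receptor known for its role in retinal vessels, did the opposite at the first of these steps. It had Endo values of 8.24 and 13.5, HE values of 8.62 and 12.8, pre-HSC values of 23.6, 26.8 and 21.1, FL HSC values of 1.23 and 2.73 and BM HSC values of 1.505 and 1.92. All pre-HSC libraries lay above all others, and Endo and HE overlapped. The rise of Fzd4 was 1.10 on the log2 scale (SE 0.28, adjusted p = 0.018). It was lost without HE replicate 1 (0.85, adjusted p = 0.172) and without pre-HSC replicate 2 (1.02, adjusted p = 0.0552). The fall into FL HSCs was 3.10 (SE 0.28, adjusted p = 1.51e-05).

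Fzd1, Fzd6 and Fzd8 were called only from pre-HSCs to FL HSCs. Fzd1 went from 8.97, 7.18 and 6.00 FPKM to 0.319 and 0.312 (log2 fold change -2.66, SE 0.25, adjusted p = 2.1e-05). Fzd6, which also works in planar polarity, went from 10.3, 12.3 and 11.3 to 3.13 and 4.31 (-1.39, SE 0.16, adjusted p = 8.88e-05). Fzd8 went from 9.29, 8.92 and 6.60 to 2.40 and 2.005 (-1.52, SE 0.22, adjusted p = 0.000341). In BM HSCs Fzd6 was at 6.495 and 6.38 and Fzd8 at 4.17 and 3.42 FPKM, above FL HSCs in every library but with changes under 2-fold (0.67 and 0.58 on the log2 scale, adjusted p = 0.0258 and 0.112). Fzd1 was at 0.0757 and 0.0901 in BM HSCs.

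Fzd7 was called in no step and was the most abundant Frizzled in FL HSCs, at 8.33 and 10.2 FPKM, with Endo values of 3.83 and 8.46, HE values of 10.4 and 14.6, pre-HSC values of 6.23, 4.45 and 4.95 and BM HSC values of 5.14 and 7.23. All HE and both FL HSC libraries lay above all pre-HSC libraries. The step from HE to pre-HSCs was -1.11 (SE 0.29, adjusted p = 0.0215), with an F test adjusted p of 0.0333 that missed the threshold. Fzd3, Fzd5 and Fzd9 were also called in no step. They ranged from 0.463 to 4.60 FPKM, and Fzd9 had HE values of 1.18 and 1.003, pre-HSC values of 2.33, 3.24 and 2.89 and FL HSC values of 3.18 and 4.60.

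The co-receptors Lrp5 and Lrp6 were expressed in all libraries. Lrp5 had Endo values of 39.5 and 54.6 FPKM, HE values of 47.0 and 42.0, pre-HSC values of 51.1, 51.9 and 52.8, FL HSC values of 26.4 and 23.6 and BM HSC values of 19.7 and 25.3, so all HSC libraries lay below all earlier ones. Its fall into FL HSCs was 1.03 on the log2 scale (SE 0.16, adjusted p = 0.000559), at the edge of 2-fold, and without FL HSC replicate 2 it was -0.95. Lrp6 had Endo values of 7.05 and 11.8, HE values of 7.76 and 13.9, pre-HSC values of 17.2, 15.0 and 12.4, FL HSC values of 14.9 and 20.4 and BM HSC values of 20.3 and 17.8, and was called in no step. Lrp5 thus made up 74.9% to 85.8% of the Lrp5 and Lrp6 sum before the fetal liver, with FL HSC shares of 63.9% and 53.7% and BM HSC shares of 49.3% and 58.8%.

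Among R-spondin receptors, Lgr4 was the only Lgr gene tested and ranged from 2.01 to 7.40 FPKM with no call in any step. Its libraries had Endo values of 2.89 and 5.92, HE values of 4.09 and 6.80, pre-HSC values of 7.40, 5.67 and 4.62, FL HSC values of 3.02 and 4.78 and BM HSC values of 2.01 and 3.54, and neighboring populations overlapped at every step. Lgr5 and Lgr6, known as epithelial stem cell markers, were at most 0.758 and 0.355 FPKM. The ligases were low and not called, with Znrf3 between 1.18 and 4.23 FPKM and highest in BM HSCs, and Rnf43 between 0 and 1.80 and highest in HE.

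As a group, the secreted antagonists had their highest sums in HE, while Dkk1 and Sfrp4 had their highest means in FL HSCs and Dkk4 in pre-HSCs. The summed FPKM of all 8 antagonists had Endo values of 16.7 and 23.9, HE values of 38.0 and 48.5, pre-HSC values of 35.0, 22.7 and 24.9, FL HSC values of 3.09 and 5.03 and BM HSC values of 1.93 and 1.68. Of 6 tested, all had lower means in pre-HSCs than in HE, 2 of them called, and 4 fell into FL HSCs. Calls of a fall covered 4.34% of all tested genes in the first of these steps and 13.9% in the second. Sfrp2 had Endo values of 8.03 and 8.91 FPKM, HE values of 14.1 and 18.3, pre-HSC values of 16.1, 10.3 and 10.2, FL HSC values of 0.982 and 2.05 and BM HSC values of 0.700 and 0.159. Its fall into FL HSCs was 2.40 (SE 0.28, adjusted p = 8.3e-05) on the log2 scale. Sfrp1 had Endo values of 4.26 and 7.94, HE values of 13.0 and 18.5, pre-HSC values of 12.4, 7.51 and 8.91, FL HSC values of 0.320 and 0.210 and BM HSC values of 0.991 and 1.397, with a fall of 3.04 (SE 0.28, adjusted p = 1.88e-05). All HE libraries lay above all Endo libraries in both genes, with log2 fold changes of 0.85 and 1.27 that were not called (adjusted p = 0.439 and 0.243).

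Dkk2 had pre-HSC values of 2.67, 1.91 and 2.88 FPKM and FL HSC values of 0.0701 and 0.0123, a fall of 1.73 (SE 0.22, adjusted p = 0.00013). Dkk3, a divergent family member, had HE values of 3.59 and 4.89 FPKM, pre-HSC values of 1.85, 1.62 and 1.20 and FL HSC values of 0 and 0.0340. It fell by 1.03 (SE 0.23, adjusted p = 0.0102) and 1.32 (SE 0.23, adjusted p = 0.00102), the first a change at the edge of 2-fold that was lost without HE replicate 2 (-0.85, adjusted p = 0.064), without pre-HSC replicate 3 (-0.93, adjusted p = 0.0299) and when replicate numbers were a block (-0.93, adjusted p = 0.0311). Sfrp5 had HE values of 1.70 and 1.70 and pre-HSC values of at most 0.340, a fall of 1.08 (SE 0.19, adjusted p = 0.00376).

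Dkk1 (chr19:30620353-30624155 in mm9), the classic blocker of Lrp5 and Lrp6, was the member called from FL to BM HSCs. It had Endo values of 0.700 and 0.605 FPKM, HE values of 2.42 and 1.09, pre-HSC values of 1.53, 0.782 and 1.38, FL HSC values of 1.60 and 1.95 and BM HSC values of 0.0553 and 0. FL HSC libraries overlapped HE libraries and lay above both BM HSC libraries. The log2 fold change into BM HSCs was -1.43 (SE 0.27, adjusted p = 0.0059). Leaving out either Endo library (adjusted p = 0.011), FL HSC replicate 2 (-1.34, adjusted p = 0.0243) or BM HSC replicate 1 or 2 (-1.47, adjusted p = 0.03, and -1.39, adjusted p = 0.0307) ended the call, as the F test step then missed its threshold. Dkk4 and Sfrp4 were not tested and reached at most 0.127 and 0.735 FPKM.

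β-Catenin itself was abundant throughout. Ctnnb1 (chr9:120838334-120869625 in mm9) had Endo values of 356 and 419.8 FPKM, HE values of 353 and 405, pre-HSC values of 463, 514 and 460.3, FL HSC values of 193 and 210.5 and BM HSC values of 142 and 147. It fell into FL HSCs by 1.24 (SE 0.13, adjusted p = 3.93e-05), and the further step into BM HSCs was -0.48 (SE 0.14, adjusted p = 0.0384), under 2-fold. β-Catenin also joins cadherins at endothelial junctions, and Cdh5, the endothelial cadherin, was at 454, 488.5 and 429.5 FPKM in pre-HSCs and at 11.2 and 4.78 in FL HSCs. The part of that pool was not tested. Axin1, the constitutive scaffold of the destruction complex, was higher in each HSC library (25.1 to 31.2 FPKM) than in each earlier one (13.8 to 19.1), with a log2 fold change into FL HSCs of 0.72 (SE 0.13, adjusted p = 0.00149) that did not reach 2-fold.

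Axin2 (chr11:108781663-108812097 in mm9), the inducible scaffold and a common readout of canonical signaling, fell in both middle steps. It had Endo values of 6.58 and 9.55 FPKM, HE values of 10.98 and 11.2, pre-HSC values of 3.43, 2.74 and 1.96, FL HSC values of 0.427 and 1.03 and BM HSC values of 0.372 and 0.606. Endo, HE, pre-HSC and FL HSC libraries did not overlap, and FL and BM HSC libraries did. Axin2 fell by 1.72 (SE 0.25, adjusted p = 0.00159) into pre-HSCs. Its fall into FL HSCs was 1.10 (SE 0.25, adjusted p = 0.00485), and it was under 2-fold after quantile normalization (-0.75), without pre-HSC replicate 1 (-0.97) and without FL HSC replicate 1 (-0.85).

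Lef1 (chr3:130813389-130927274 in mm9), a TCF/LEF factor that mostly activates, had Endo values of 20.5 and 24.8 FPKM, HE values of 20.8 and 19.8 and pre-HSC values of 8.38, 8.61 and 7.83. It was at 0 and 0.0204 in FL HSCs and at 0 in both BM HSC libraries. The spread within each population was small beside these steps, which were -1.20 (SE 0.16, adjusted p = 0.00103) and -3.20 (SE 0.16, adjusted p = 3.27e-07). Tcf7 (chr11:52065873-52096681 in mm9), which encodes TCF1, had Endo values of 13.9 and 15.8, HE values of 13.7 and 12.9, pre-HSC values of 6.96, 6.82 and 5.12, FL HSC values of 1.42 and 0.581 and BM HSC values of 0.146 and 0.679. It fell by 1.89 into FL HSCs (SE 0.25, adjusted p = 0.000173). Its step from HE to pre-HSCs was -0.98 (SE 0.25, adjusted p = 0.0173), just under 2-fold, and passed under 4 of 20 alternative settings. Lef1 and Tcf7 are also known in lymphocytes. Of the lymphoid markers, Lck was at 25.5 to 38.9 FPKM in Endo and HE, 23.0 to 31.9 in pre-HSCs and 7.21 to 13.1 in HSCs, and it fell into FL HSCs (log2 fold change -1.11), while Cd3d, Cd3e, Cd3g and Rag1 were at most 0.646 FPKM in any library. The part of lymphocytes in the Lef1 and Tcf7 values was not tested.

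Tcf7l1 was called in the same single step as Tcf7, and Tcf7l2 in none. Tcf7l1, which mostly represses, had Endo values of 15.9 and 28.4 FPKM, HE values of 27.9 and 27.5, pre-HSC values of 24.6, 32.3 and 22.6, FL HSC values of 3.55 and 3.83 and BM HSC values of 5.17 and 2.23. The first 3 populations overlapped, and it fell by 2.54 (SE 0.30, adjusted p = 9.41e-05) into FL HSCs. Tcf7l2 had Endo values of 4.96 and 7.78, HE values of 4.39 and 7.48, pre-HSC values of 12.1, 13.4 and 11.7, FL HSC values of 8.19 and 9.33 and BM HSC values of 8.52 and 8.08, with no call. Its step from HE to pre-HSCs was 0.98 (SE 0.23, adjusted p = 0.0125), and all pre-HSC libraries lay above all others. The summed FPKM of the 4 factors was 55.2 to 76.9 in Endo and HE, 47.3 to 61.1 in pre-HSCs and 10.99 to 13.8 in the HSCs. Tcf7l2 made up 6.58% to 11.1% of the sum in Endo and HE, 21.9% to 24.7% in pre-HSCs and 61.6% to 73.5% in FL and BM HSCs. Lef1 made up 29.3% to 37.2% of it in Endo and HE and at most 0.148% in HSCs.

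**Figure D4:**
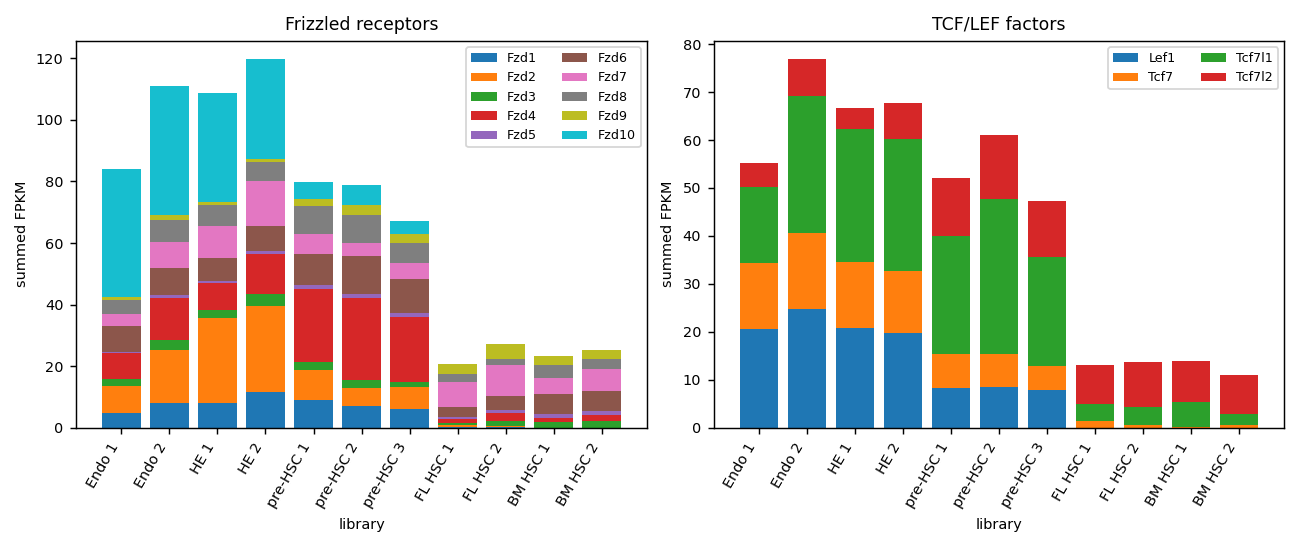
Stacked bars of FPKM (vertical axes, starting at 0) for the 10 Frizzled genes, without the pseudogene model (left), and the 4 TCF/LEF genes (right) in each of the 11 libraries. Fzd10 fills much of the Endo and HE bars and Fzd4 the pre-HSC bars, and Tcf7l2 is the largest piece of the HSC bars, at 61.6% to 73.5%.

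Axin2, Lef1 and Tcf7 are known targets of the pathway that each fell into FL HSCs, and promoters of the 3 are shown for that reason. RefSeq promoters (GRCm38.p6, 250 bases before to 50 after a start) were found for 36 of the 55 symbols. They were searched on both strands for CTTTGA, the core of sites that TCF/LEF factors are known to bind, which is not part of another motif searched. The core was in 5 of 46 promoters of the members (Dkk1, Fzd1, Lef1, Wnt5b and Wnt11), or 10.9%, and in 16.0% of all 32851 promoters. Sequences run 5′ to 3′ along the gene, and capitals mark the core or its reverse complement TCAAAG.
Axin2, chr11:108920099-108920398, plus strand: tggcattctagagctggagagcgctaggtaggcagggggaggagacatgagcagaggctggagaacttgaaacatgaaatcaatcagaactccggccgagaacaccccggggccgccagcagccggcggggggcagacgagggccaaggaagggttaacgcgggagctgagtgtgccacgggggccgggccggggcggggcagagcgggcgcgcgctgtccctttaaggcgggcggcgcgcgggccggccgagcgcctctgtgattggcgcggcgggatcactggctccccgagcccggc
Lef1, first start, chr3:131110047-131110346, plus strand: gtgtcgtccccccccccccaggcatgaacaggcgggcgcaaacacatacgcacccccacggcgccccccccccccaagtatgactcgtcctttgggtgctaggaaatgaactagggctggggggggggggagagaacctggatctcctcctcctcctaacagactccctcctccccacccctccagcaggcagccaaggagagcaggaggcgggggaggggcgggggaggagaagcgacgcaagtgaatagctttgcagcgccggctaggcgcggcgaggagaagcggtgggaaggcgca
Lef1, start within the gene, chr3:131156044-131156343, plus strand: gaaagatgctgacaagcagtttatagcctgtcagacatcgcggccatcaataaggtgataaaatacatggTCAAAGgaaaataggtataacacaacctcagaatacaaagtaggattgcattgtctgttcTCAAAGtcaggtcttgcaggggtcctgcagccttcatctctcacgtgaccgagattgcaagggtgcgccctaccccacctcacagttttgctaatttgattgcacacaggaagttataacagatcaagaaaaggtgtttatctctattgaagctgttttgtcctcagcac
Tcf7, chr11:52282965-52283264, minus strand: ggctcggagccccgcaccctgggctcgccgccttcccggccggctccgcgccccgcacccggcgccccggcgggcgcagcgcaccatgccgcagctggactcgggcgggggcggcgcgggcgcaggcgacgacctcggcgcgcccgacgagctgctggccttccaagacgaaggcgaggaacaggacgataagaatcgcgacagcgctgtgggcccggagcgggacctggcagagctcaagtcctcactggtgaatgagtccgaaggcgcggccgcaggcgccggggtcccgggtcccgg
The Lef1 start within the gene had 2 matches, 180 and 120 bases before the start, and the other 3 windows had none. RefSeq has 2 more Lef1 starts and 1 more Tcf7 start, not printed here, whose windows had none either. A match is a description of letters and not a site, and the RNA values above do not tell which start was used.

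Among feedback and common target genes, Nkd1 and Nkd2 fell into pre-HSCs as Axin2 did and Cd44 rose, and 8 of the 11 tested were not called in that step. Nkd1, an inducible inhibitor that binds Dishevelled, had Endo values of 20.4 and 21.8 FPKM, HE values of 22.3 and 23.4, pre-HSC values of 5.24, 3.81 and 4.53, FL HSC values of 0.416 and 0.821 and BM HSC values of 0.195 and 0.240. It fell by 2.12 (SE 0.19, adjusted p = 0.000126) and 1.77 (SE 0.19, adjusted p = 4.02e-05). Apcdd1, an inducible inhibitor at the cell surface that is counted below with the extracellular antagonists, had Endo values of 37.1 and 36.9, HE values of 31.8 and 43.0, pre-HSC values of 8.61, 8.46 and 6.74 and FL HSC values of 0.758 and 0.398. It fell by 2.10 (SE 0.20, adjusted p = 0.000195) and 2.50 (SE 0.20, adjusted p = 7.07e-06). Endo and HE libraries of both genes lay far above all others. Myc, a growth regulator under many controls, was at 18.2 to 34.2 FPKM before the fetal liver with FL HSC values of 144 and 121 and BM HSC values of 119 and 123, and rose into FL HSCs by 2.13 on the log2 scale (SE 0.15, adjusted p = 3.54e-06). Cd44, an adhesion receptor of blood cells, rose from 5.86 and 5.43 in HE to 19.4, 20.7 and 26.8 in pre-HSCs (1.80, SE 0.15, adjusted p = 0.000104) and was at 48.0 and 45.1 in FL HSCs. Its second rise was 1.04 (SE 0.15, adjusted p = 0.000357), and it was under 2-fold without pre-HSC replicate 1 or 2 or FL HSC replicate 1 (0.9525 to 0.9975) and with both other scalings (0.80 and 0.91). Jun, an immediate early gene, had pre-HSC values of 151 to 171 FPKM, FL HSC values of 5.80 and 7.50 and BM HSC values of 558 and 103, whose libraries thus differed widely from each other. Of the 14 genes of the feedback and target list, which does not hold Apcdd1, 11 were tested. On entry to pre-HSCs 1 rose and 2 fell, on entry to FL HSCs 2 rose and 7 fell, and on entry to BM HSCs 1 rose. Of all tested genes, 6.98% rose and 4.34% fell, 11.1% rose and 13.9% fell, and 5.99% rose and 4.07% fell in these steps.

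**Figure D5:**
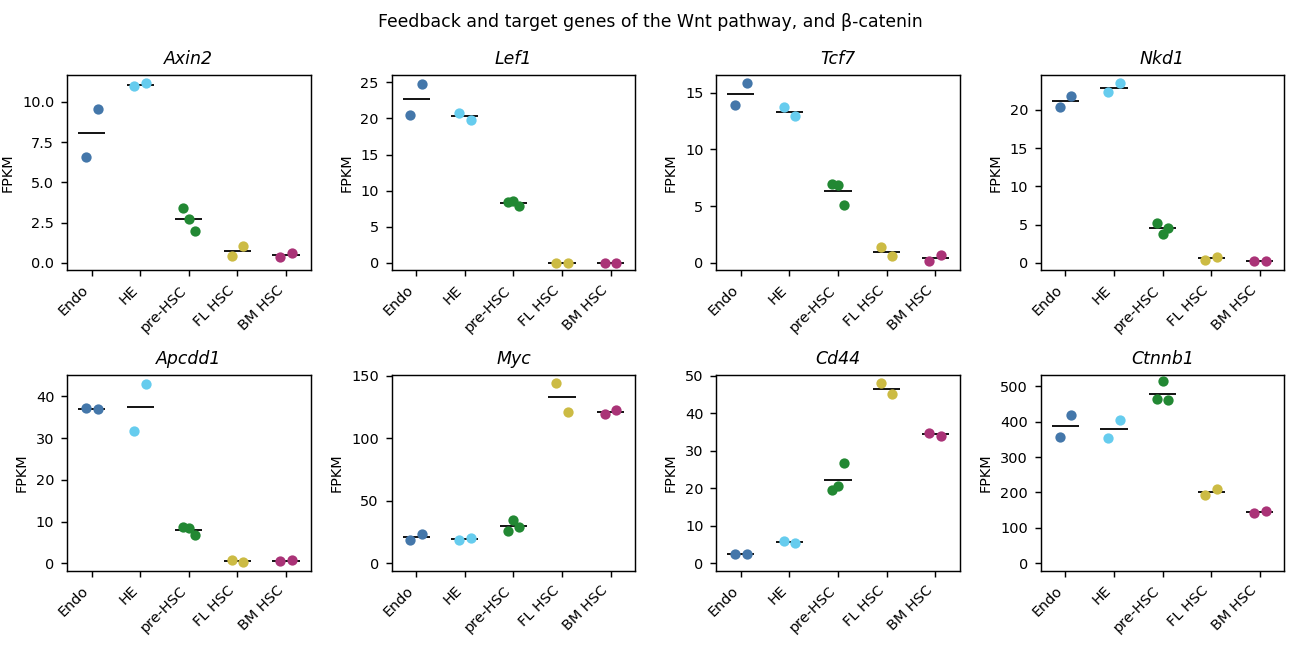
FPKM (vertical axes, linear) of 7 feedback and target genes and of Ctnnb1 in the 5 populations; points are libraries and black lines are population means. Axin2, Lef1, Tcf7, Nkd1 and Apcdd1 step down at pre-HSCs and again at FL HSCs, whereas Myc, at 119 to 144 FPKM, and Cd44 are highest in HSCs.

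Over all 7 lists of other pathway genes, 62 were tested. With limma's unadjusted p-values below 0.05 and 2-fold, 1 was higher and 0 were lower from Endo to HE, beside 1.99% and 0.299% of all tested genes. None was called in that step. By calls, 2 rose and 6 fell into pre-HSCs, 3 rose and 23 fell into FL HSCs, and 3 rose and 2 fell into BM HSCs. Over all tested genes, 6.98% and 4.34%, 11.1% and 13.9%, and 5.99% and 4.07% rose and fell in these steps, so that the counts into BM HSCs are near the background. The median log2 fold changes of the 62 in the 4 steps, from Endo to HE onward, were 0.15, -0.12, -0.75 and -0.03. After quantile normalization 1 rose and 9 fell from HE to pre-HSCs, and 3 rose and 4 fell from FL to BM HSCs. Among other Wnt receptors, 1 of 7 tested fell into pre-HSCs, 5 fell into FL HSCs and 1 fell into BM HSCs. Gpr124, the receptor that works with Reck for Wnt7 ligands in brain vessels, had pre-HSC values of 63.0 to 72.1 FPKM, FL HSC values of 6.88 and 7.28 and BM HSC values of 1.83 and 1.42, with falls of 3.07 (SE 0.17, adjusted p = 7.14e-07) and 1.62 (SE 0.19, adjusted p = 0.000557). Reck fell from 12.4, 11.01 and 8.89 in pre-HSCs to 1.97 and 3.29 in FL HSCs (-1.71, SE 0.23, adjusted p = 0.000185). Tspan12, a partner of Fzd4 in retinal vessels, fell with Fzd4 at this step, from 13.0, 14.6 and 10.2 to 1.16 and 0.821 (-2.76, SE 0.24, adjusted p = 1.17e-05). Ror2, a receptor for Wnt5a, had HE values of 8.97 and 8.50 FPKM, pre-HSC values of 4.03, 2.76 and 2.54 and FL HSC values of 0.746 and 1.26, with both steps called (adjusted p = 0.0116 and 0.0139). The first was lost without HE replicate 1, and the second without pre-HSC replicate 1 or FL HSC replicate 1.

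Of other extracellular antagonists, 2 of 5 tested fell into pre-HSCs (Apcdd1 and Frzb), and 3 fell and 1 rose into FL HSCs. The shares of all tested genes were 4.34% falling into pre-HSCs, and 13.9% falling and 11.1% rising into FL HSCs. Frzb, a relative of the Sfrp genes, had HE values of 3.72 and 5.67 FPKM and pre-HSC values of 1.88, 0.898 and 1.42 (-1.25, SE 0.25, adjusted p = 0.00617, and -0.9961 without HE replicate 2), and is listed at 0 in both FL HSC libraries. Sost was at 6.46 to 16.7 FPKM in every library before the fetal liver and is listed at 0 in all 4 HSC libraries. Dkkl1, a Dickkopf-like gene best known from testis, went the other way. It was at 0.0354 to 1.83 FPKM before the fetal liver, with FL HSC values of 11.6 and 9.22 and BM HSC values of 32.4 and 38.3, rising by 2.63 (SE 0.30, adjusted p = 7.6e-05) and 1.67 (SE 0.33, adjusted p = 0.00682).

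Where 35% of all tested genes were called in at least 1 step, 1 of 13 tested destruction complex genes was called in any. This was Csnk1e, which fell from 101, 99.4 and 81.9 FPKM in pre-HSCs to 34.9 and 45.1 in FL HSCs (-1.22, SE 0.17, adjusted p = 0.000254). Of 11 tested Dishevelled and planar polarity genes, 0 were called from Endo to HE or from HE to pre-HSCs, 3 fell into FL HSCs and 1 into BM HSCs. Among all tested genes, 6.98% rose and 4.34% fell into pre-HSCs, 13.9% fell into FL HSCs and 4.07% into BM HSCs. Prickle1 fell from 17.8, 17.1 and 15.3 in pre-HSCs to 4.2 and 3.50 in FL HSCs (-1.87, SE 0.17, adjusted p = 1.8e-05). Vangl1 fell from 5.14 and 7.27 in FL HSCs to 1.70 and 1.93 in BM HSCs (-1.34, SE 0.22, adjusted p = 0.00284). Daam2 fell from 2.10, 1.69 and 1.13 in pre-HSCs to 0.140 and 0.277 in FL HSCs (-1.11, SE 0.25, adjusted p = 0.00462), under 2-fold without pre-HSC replicate 1 (-0.99), and Prickle2, at 1.75, 1.08 and 0.915 in pre-HSCs, is listed at 0 in both FL HSC libraries. The Dishevelled genes Dvl1, Dvl2 and Dvl3 were at 8.21 to 38.5 FPKM across all libraries and were called in no step.

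Of 12 tested nuclear cofactors, 1 rose from HE to pre-HSCs, 4 fell into FL HSCs and 1 rose into BM HSCs. Of all tested genes, 6.98% rose, 13.9% fell and 5.99% rose in the same steps, so that the counts of 1 are near the background. Sox17, an endothelial and fetal HSC factor that can bind β-catenin, had pre-HSC values of 32.2, 45.7 and 33.4 FPKM and FL HSC values of 0 and 0.0669 (-5.19, SE 0.20, adjusted p = 7.54e-08). Tle2, a Groucho co-repressor that binds TCF factors, had FL HSC values of 1.59 and 3.57 and BM HSC values of 36.5 and 19.1 (2.999, SE 0.39, adjusted p = 0.000883). Its smaller rise from 1.70 and 2.55 in HE to 7.13, 4.70 and 5.85 in pre-HSCs (1.14, SE 0.35, adjusted p = 0.0398) was lost without either HE library and without any 1 of the 3 pre-HSC libraries. Ctnnbip1, a β-catenin inhibitor, fell from 20.5, 26.2 and 24.6 in pre-HSCs to 10.8 and 6.67 in FL HSCs (-1.37, SE 0.29, adjusted p = 0.003), and Hbp1, a repressor, fell from 47.2, 49.6 and 41.7 to 15.0 and 24.0 (-1.24, SE 0.18, adjusted p = 0.000357), though by -0.91 without FL HSC replicate 1. Of the genes for Wnt secretion, Notum, an enzyme that removes the lipid of Wnt proteins, fell from 4.08 and 2.56 in HE to 0.904, 0.595 and 0.521 in pre-HSCs (-1.35, SE 0.29, adjusted p = 0.00839), with no call without HE replicate 1. Wls and Porcn, which the ligand-making cell needs, were at 12.7 to 37.1 and 1.26 to 5.35 FPKM across all libraries and were called in no step. Neighboring populations did not overlap in Wls, which had its highest mean in BM HSCs. Its changes were under 2-fold, at 0.75 into pre-HSCs, -0.89 into FL HSCs and 0.97 into BM HSCs. Their adjusted p-values in limma were 0.0094, 0.0014 and 0.0048.

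The step from pre-HSCs to FL HSCs is also the step at which the endothelial marker sum went from 2095 to 2312 FPKM to 158 and 165, with 8 of 8 endothelial markers and 13 of 14 mural and mesenchymal markers called lower. From HE to pre-HSCs, 8 of 14 mural and mesenchymal, 6 of 6 epithelial and 5 of 7 tested neural and neural crest markers fell, 0 of 8 endothelial markers fell, and 6 of 6 macrophage markers rose. Acta2, Col3a1, Dcn, Lum, Prrx1, Rgs5, Cspg4 and Pdgfra are listed at 0 in both BM HSC libraries. Of the same 14 mural and mesenchymal markers, Col1a2 (7.77 and 6.38 FPKM) and Pdgfrb (2.03 and 3.075) were above 1 FPKM there. The sums of this list were 11.5 and 11.1 FPKM in BM HSCs and 6.89 and 13.8 in FL HSCs. The part of these cell types in the falls of the Wnt family genes was not tested.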

How the data were processed

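Total RNA of sorted cells was poly(A)-selected, made into unstranded libraries and sequenced as paired ends. Per the labels and the study's methods, the authors aligned reads with TopHat to mm9, kept unique matches and counted genes of an Ensembl annotation. TopHat, Cufflinks, featureCounts, Subread and edgeR are named in the submitters' processing notes, and for the tool behind the deposited FPKM values: not given in the sources used here. FPKM are not counts, so no count test was run and depth is unknown. Gene symbols were found for 37038 (97.9%) of 37820 Ensembl IDs. limma 3.58.1 in R 4.3.3 was fitted to log2(FPKM + 1) of all 11 libraries with a mean-variance trend, on 14708 genes, and p-values were adjusted over these by the Benjamini-Hochberg method. The script was tested on simulated data with changes planted only in genes of higher FPKM, so that test does not cover members at low FPKM. Members were named when called in at least 1 step or at a mean of at least 5 FPKM in a population, with up to 4 called genes of each other list. Wnt10b, Fzd9, the Dvl genes, Wls, Porcn, Cdh5 and the single marker genes given, among them Krt8, were named after their values were seen. The members and lists were chosen with earlier results of these data known. Groups and replicates follow the labels, and the study calls them biological replicates of sorted cells. Endo and HE may come from the same embryos, but no source pairs libraries by number, and numbers were not used as pairs. Alternatives were other pseudocounts (0.1, 0.5), no filter, quantile and equal-total scaling, no F test step, a threshold of 0.01, a replicate block, fits of only both populations, and each library left out. The summed level of the lymphoid marker list is not reported here.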

Additional observations from a re-analysis of the deposited data

How the results depend on the processing

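No called value of a named gene changed sign under any alternative run, but 41 of 151 results that were not called did so under at least 1, none of them as a call. Of 69 calls of named genes, 48 were lost under none of them, apart from the fit of only both populations, and of 1380 called values under alternatives 76 lost their call. Of 3020 values not called, 37 became called. The count of members called was 15 from HE to pre-HSCs (12 to 18 under alternatives), 22 from pre-HSCs to FL HSCs (19 to 26) and 0 from Endo to HE in every setting. From FL to BM HSCs it was 1, against 7 with a pseudocount of 0.1 (1 higher and 6 lower), 2 with a pseudocount of 0.5, 0 after quantile normalization, 0 in the fit of only both populations and 0 to 1 with each library left out. A library left alone in its group was taken to vary like the other groups. Over all 14708 tested genes, the main setting called 8 higher and 11 lower from Endo to HE. From FL to BM HSCs it called 881 higher and 599 lower. A pseudocount of 0.1 gave 922 and 834 in that step from FL to BM HSCs, 0.5 gave 979 and 709, and quantile normalization gave 669 and 585. Other pathway genes gave 5 calls in this step, against 0 in the fit of only both populations, which rests on fewer libraries. That fit called 0 of all 14708 tested genes in this step, so its 0 tells nothing about members or other pathway genes. In the other steps the other pathway genes gave 6 to 10 calls (8 in the main setting) and 22 to 31 (26). The replicate block gave 0, 14, 21 and 1 calls of members in the 4 steps and 0, 7, 27 and 5 of other pathway genes. Deviations of same-numbered libraries had correlations of -0.155 to 0.156, with 0.115 for Endo and HE, 0.156 for Endo and FL HSCs and 0.144 for HE and FL HSCs. FL and BM HSC numbers had -0.155, and the block with crossed numbers, chosen after seeing the data, gave 1 and 5. The median over all genes moved from 0.09 to -0.02 (quantile) or 0.22 (equal totals) from HE to pre-HSCs and from 0.11 to -0.09 (equal totals) from pre-HSCs to FL HSCs. The cause of these differences was not tested. With 2 libraries in most groups and depth unknown, changes of genes near 1 FPKM depend on the pseudocount and are the least certain.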
